A study of Mus musculus with 20 samples.

Results

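The early enhancer response to interferon gamma (IFN-γ) was read in 4 of the 20 libraries of the series: 2 libraries of mouse macrophages treated with IFN-γ for 3 h and 2 libraries of unstimulated macrophages taken at 0 h. All libraries came from C57BL/6 bone marrow cells that had been differentiated with M-CSF in conditioned medium, and the series describes the 2 libraries of a group as biological replicates. The assay was nAnT-iCAGE, which sequences the 5′ ends of capped RNAs from libraries made with no amplification step, and tags were counted over 11222 regions listed as enhancers on the mm39 build. Of these, 9620 held at least 1 tag in the 4 libraries, and 2792 carried enough tags over the series to be tested singly. The other groups used here received CpG oligodeoxynucleotide, an agonist of TLR9, for 3 h, IFN-γ together with CpG for 3 h, or IFN-γ for 9 or 15 h, with 2 libraries each. The unstimulated cells were taken at 0 h, so that the effect of IFN-γ and of 3 h more in culture cannot be told apart. An M2-like polarization with IL-4 plus IL-10 also appears in the protocols, and whether any of these cells had received it is not stated.

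IFN-γ binds a receptor on the macrophage surface that signals through JAK kinases to promoters and enhancers in the nucleus. Among the genes it is known to induce in macrophages are the guanylate-binding proteins and the machinery of antigen processing and presentation. Active enhancers are themselves transcribed in both directions into short, unstable capped RNAs, so that tags at an enhancer are a reading of its activity. CpG DNA acts through another route, from TLR9 in the endosome to NF-κB and related factors. The annotation at hand is of an older build than mm39, so enhancers and loci are named by their mm39 positions alone. Genes near them, sequence motifs in them and the marker genes of macrophages and other cells were therefore not examined.

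Whole libraries held 12997634 to 13826739 tags in the 4 libraries, and enhancers took a small share of them. Unstimulated libraries held 22026 and 20301 enhancer tags, and the IFN-γ libraries 17401 and 12879. Scaled to the tags of the whole library (RPM, the unit of the authors' second table), enhancers amounted to 1593 and 1511 RPM in unstimulated cells and to 1315 and 991 RPM after IFN-γ. Both IFN-γ libraries thus lay below both unstimulated ones, with group means of 1153 ± 229 and 1552 ± 58.0 RPM (SD, n = 2). An exact two-sided permutation test of 2 libraries against 2 gave p = 0.333, the smallest value that this design allows. In bulk RNA, fewer cells with an active enhancer and less RNA per cell cannot be told apart. The tests were scaled on the enhancers themselves (TMM), which raises log2 changes by 0.46 relative to whole-library totals. This scaling takes most enhancers as unchanged and so removes a drop that they share. Whether that holds here was not tested. Ratios of RPM given below are on the whole-library scale, and log2 changes are on the scale of the test.

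IFN-γ for 3 h changed transcription at 293 of the 2792 tested enhancers (10.5%), of which 212 were higher (7.59%) and 81 lower (2.90%), by edgeR's quasi-likelihood test (Benjamini-Hochberg adjusted p, threshold 0.05). The median log2 change was 4.21 over the 212 rises, -2.64 over the 81 falls and 0.01 over all tested enhancers. Of the rises, 95 had no tag in unstimulated cells, and of the falls, 18 had none after IFN-γ. Their log2 changes depend on how the fit treats a count of 0, so the 2 medians are not a comparison of the size of rises and falls. With whole-library totals in place of TMM, the split turned to 131 higher and 181 lower. The 131 were all among the 212 rises, the 81 falls all stayed called, and no rise or fall changed sign under the settings in which it had a value. Under DESeq2, 74 rises and 14 falls passed, while 41 rises and 19 falls had no adjusted p. Leaving out a library brought the calls down to 99 and 121 (without unstimulated replicate 1 or 2) and to 131 and 162 (without IFN-γ replicate 1 or 2). The libraries of the 2 groups did not overlap at 208 of the 212 rises and at all 81 falls. For all tested enhancers, both IFN-γ libraries lay above both unstimulated ones at 656 (23.5%) and below at 832 (29.8%).

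Rises and falls began from different levels. The unstimulated counts entered the test that made the calls, and a fall could pass only where there were tags to lose. The levels therefore describe the calls, and how far the test set them was not tested. The rises were near silent in unstimulated cells, with a median of 0.0362 RPM and quartiles of 0 and 0.108 RPM, and reached a median of 0.495 RPM after IFN-γ, with quartiles of 0.344 and 0.761 RPM. Of the 212 rises, 95 had no tag at all in either unstimulated library. The same held for 372 of all tested enhancers, so that most enhancers without a tag in unstimulated cells did not pass the test. The falls came from enhancers that were active beforehand, with a median of 0.991 RPM in unstimulated cells and quartiles of 0.731 and 1.47 RPM, and dropped to a median of 0.114 RPM, with quartiles of 0.0378 and 0.265 RPM. Of the 81 falls, 18 had no tag after IFN-γ, against 241 of all tested enhancers. Enhancers that were not called had medians of 0.255 RPM before and 0.189 RPM after. The lowest unstimulated level among the falls was 0.367 RPM, which is 5 tags in each library, and no fall was called from a lower level.

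**Figure D1:**
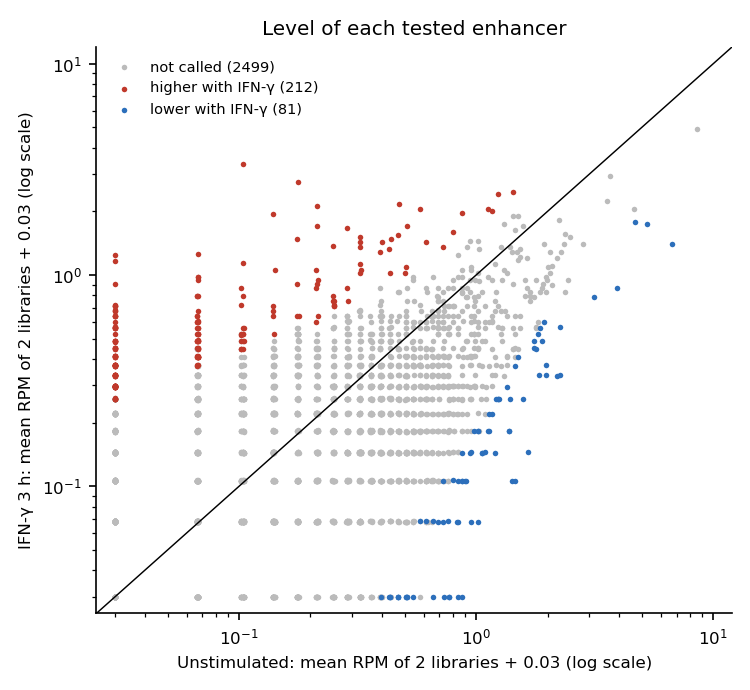
Mean level of each of the 2792 tested enhancers in unstimulated cells (x axis) and after IFN-γ for 3 h (y axis), in RPM plus 0.03 on log axes, with 1 point per enhancer and the line of equal levels. The 212 rises (red) lie at the left, mostly under 0.108 RPM before IFN-γ, and the 81 falls (blue) at the right, from 0.367 RPM upward before IFN-γ. The calls were made on these same counts.

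The enhancer with the largest gain, rise 1, was chr1:176651455-176651913. It held 1 and 1 tags in the unstimulated libraries and 50 and 37 tags after IFN-γ, which is 0.0723 and 0.0744 RPM against 3.78 and 2.85 RPM. This was a 45.2-fold rise in RPM (exact 95% counting interval 12.1 to 379), with a log2 change of 5.76 ± 0.57 (SE) and an adjusted p of 3.16e-20 by edgeR's quasi-likelihood test. CpG alone for 3 h gave 2 and 3 tags, so that both IFN-γ libraries stood far above the unstimulated libraries and those with CpG alone. Rise 2, chr5:121537641-121537963, went from 1 and 3 tags to 49 and 23 (18.7-fold, interval 7.00 to 70.5). The 2 treated libraries differed from each other here, 3.70 against 1.77 RPM, and both exceeded the unstimulated 0.0723 and 0.223 RPM. Rise 3, chr12:69410829-69411146, varied still more between its treated libraries, with 42 and 13 tags after IFN-γ against 2 and 3 before (11.4-fold, interval 4.61 to 36.6). Rise 4, chr17:36334414-36334921, held 3 and 0 tags before and a closely matched 24 and 26 tags after (17.3-fold, interval 5.60 to 86.8).

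Some of the strong rises were not silent beforehand. Rise 5, chr10:7710717-7711320, had 6 tags in each unstimulated library and 31 and 25 tags after IFN-γ, a rise from 0.440 ± 0.00893 to 2.13 ± 0.297 RPM (SD, n = 2) and 4.85-fold (interval 2.57 to 9.94). Rise 7, chr11:117878837-117879183, had 9 and 6 tags before and 28 and 25 after, which is 3.67-fold (interval 2.04 to 7.02) and the smallest fold among the 10 largest gains. It also held 19 and 18 tags after CpG alone, more than in either unstimulated library. The other gains among the 10 were rise 6 on chrY:90850402-90850945 (3 and 2 tags to 27 and 17), rise 8 on chr6:136474835-136475188 (5 and 2 to 24 and 19) and rise 9 on chr12:55346238-55346409 (3 and 1 to 24 and 14). Each of the 10, which were chosen among enhancers whose groups did not overlap, remained called under every alternative tried, with the 4 libraries left out in turn and DESeq2 included.

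**Figure D2:**
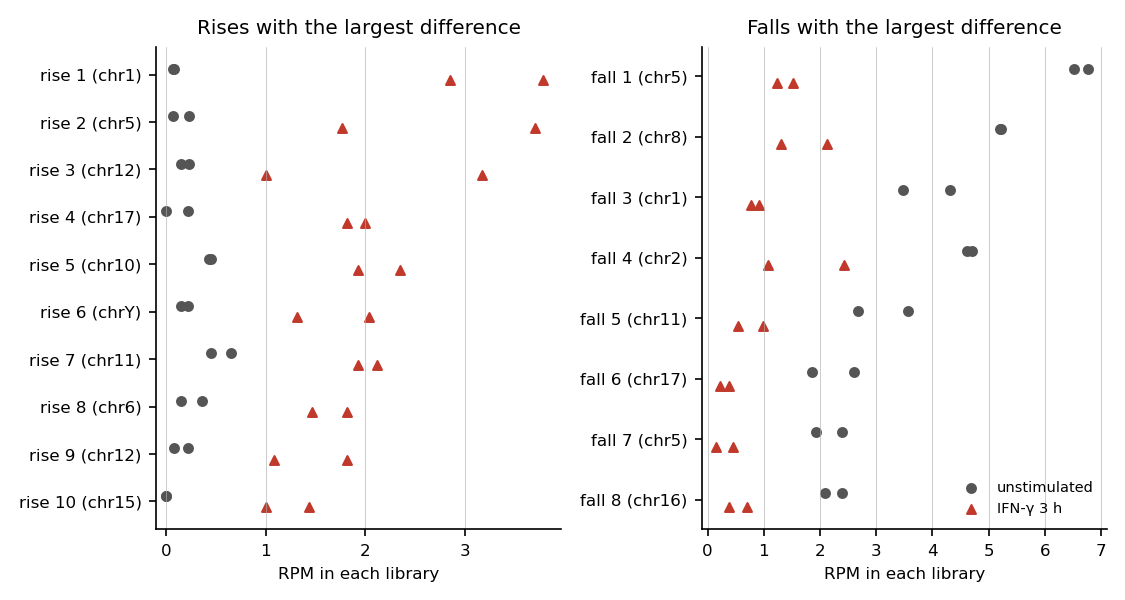
RPM in each library at the 10 rises (left) and 8 falls (right) with the largest difference in mean RPM; circles are the 2 unstimulated libraries and triangles the 2 IFN-γ 3 h libraries. Only enhancers whose groups did not overlap were eligible. At rise 1 the triangles stand at 3.78 and 2.85 RPM and the circles at 0.0723 and 0.0744 RPM, and at fall 1 the circles stand at 6.51 and 6.77 RPM and the triangles at 1.51 and 1.23 RPM.

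The 8 rises with the largest log2 change were all without a tag in both unstimulated libraries, so that their folds are lower bounds, computed as if the unstimulated group had held 3 tags in all. The first, chr15:74870658-74871129, is also rise 10 by its gain: it went from 0 and 0 tags to 19 and 13, at least 11.1-fold higher, with an adjusted p of 4.81e-09 by edgeR's quasi-likelihood test. Next came chr3:121164067-121164375, at least 10.4-fold higher with 20 and 10 tags after IFN-γ, and chr1:173879828-173879978, at least 7.97-fold higher with 10 and 13. The remaining members were chr12:73927216-73927600 (7 and 11 tags), chr8:83127709-83127907 (9 and 9), chr19:11517556-11517878 (12 and 6), chr10:117555820-117556219 (12 and 6) and chr5:34920286-34920501 (6 and 11), each at least 5.89-fold higher. After CpG alone, chr1:173879828-173879978 held 2 and 2 tags, chr3:121164067-121164375 held 0 and 2, chr8:83127709-83127907 held 2 and 0, and the others at most 1 in a library.

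Falls removed part of the signal of enhancers that were among the stronger ones of unstimulated cells. Fall 1, chr5:34684166-34684741, held 90 and 91 tags before and 20 and 16 after IFN-γ, which is 6.51 and 6.77 RPM against 1.51 and 1.23 RPM. It was 4.84-fold lower in RPM (interval 3.37 to 7.12), with a log2 change of -1.82 ± 0.31 (SE) and an adjusted p of 1.37e-06 by edgeR's quasi-likelihood test. The replicates lay close together in both groups and far apart between them. Fall 3, chr1:128518463-128519014, went from 48 and 58 tags to 12 and 10 (4.64-fold lower, interval 2.91 to 7.71). Fall 7, chr5:23623438-23623688, went from 33 and 26 tags to 6 and 2 (7.10-fold lower, interval 3.38 to 17.2). These 3 kept their calls with each library left out and with DESeq2, as did chr1:87828785-87829028, which had 20 and 19 tags before and 2 and 0 after (18.8-fold lower, interval 4.86 to 160).

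Other falls among the largest lost their calls when some library was left out. Such a fit leaves 1 library in a group, and most of the 81 falls lost their calls in each such fit. Fall 2, chr8:84928192-84928495, went from 72 and 70 tags to 28 and 17, and its adjusted p of 0.00481 became 0.0825 without IFN-γ replicate 2, the library with the fewest enhancer tags. Fall 4, chr2:180085365-180085953, went from 65 and 62 tags to 32 and 14. Its adjusted p of 0.0249 rose to 0.11 and 0.104 without unstimulated replicate 1 or 2, to 0.308 without IFN-γ replicate 2, and to 0.121 with DESeq2. Fall 5, chr11:114894820-114895102, went from 37 and 48 tags to 13 and 7, with an adjusted p of 0.00181 that became 0.0703 without unstimulated replicate 2 and 0.0552 without IFN-γ replicate 2. Fall 6, chr17:5623319-5623642, went from 36 and 25 tags to 3 and 5 (7.34-fold lower, interval 3.50 to 17.8), and only leaving out IFN-γ replicate 1 ended its call (adjusted p = 0.0748). Leaving out the same library also ended the call of chr2:13409909-13410211, with 17 and 27 tags before and 1 and 2 after. Fall 8, chr16:11274079-11274569, went from 33 and 28 tags to 5 and 9, with an adjusted p of 0.00777 that became 0.0954 with DESeq2, 0.0805 without unstimulated replicate 1 and 0.310 without IFN-γ replicate 1. All of these falls kept their direction under the alternatives tried.

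The 5 falls with the largest log2 change had no tag in either IFN-γ library. Most of the 81 falls lost their calls in each fit with a library left out, so lost calls there are not particular to these 5. The strongest, chr4:141147285-141147543, held 15 and 8 tags in unstimulated cells and was at least 7.38-fold lower after IFN-γ. Its adjusted p was 0.00147, and 0.0629 without IFN-γ replicate 1. For chr10:98580063-98580365, with 13 and 9 tags before, the same step took the adjusted p from 0.00185 to 0.0735. The calls of chr4:59806595-59807073 (6 and 14 tags before), chr1:128326811-128327315 (9 and 11) and chr15:79976905-79977111 (8 and 11) were lost without either IFN-γ library or unstimulated replicate 2, with adjusted p between 0.0554 and 0.143.

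Many enhancers lie close to others, and single enhancers carry few tags, so counts were also summed over loci. A locus was a chain of enhancers on 1 chromosome in which the gap to the next was at most 50 kb. The 11222 enhancers formed 3866 loci, of which 1896 carried enough tags to be tested. IFN-γ changed 397 of them, 245 higher (12.9%) and 152 lower (8.02%). With whole-library totals the split was 142 higher and 257 lower. DESeq2 called 185 loci, and leaving out a library left 240 (without IFN-γ replicate 1) to 270 (without IFN-γ replicate 2). Of the 397 loci, 190 held no enhancer that was called singly, 96 of them higher and 94 lower. Another rise lay within 50 kb of 56 of the 212 rises (26.4%), and another fall that near to 17 of the 81 falls (21.0%). For all tested enhancers, another tested one lay that near to 64.6%, which is not the matching share. How many of all tested enhancers lay that near to a rise or a fall was not counted. A rise stood in 175 loci and a fall in 69, and no locus held both. Whether rises and falls lay together or apart, among themselves or from each other, was not tested. Up to 4 rises, or 4 falls, stood in a single locus.

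The 10 named rising loci are those with the largest gain in summed RPM among called loci of at least 2 enhancers. Rising locus 1, chr1:176639887-176661898, spans 22.0 kb with 8 enhancers and rose from 1.08 and 0.595 RPM to 5.14 and 4.00 RPM (5.42-fold, exact 95% counting interval 3.45 to 8.88). Most of this was rise 1, which gave 50 and 37 of the 68 and 52 tags after IFN-γ. The strongest enhancer of this locus before IFN-γ, chr1:176655010-176655584, held 12 and 4 tags then and 9 and 5 after, and was not called (adjusted p = 0.797). Rising locus 4, chr5:121479358-121538524, was likewise carried by 1 enhancer, rise 2, with 49 and 23 of its 51 and 24 tags. Rises 3 and 4 likewise gave most of the tags of rising loci 7 (chr12:69410829-69413044, 2 enhancers) and 8 (chr17:36308742-36334921, 4 enhancers).

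Elsewhere the rise was spread over more of the enhancers of a locus. The loci were chosen for their summed gain in these libraries, so counts of enhancers within them describe them. The share with more RPM over all enhancers was not counted. Rising locus 2, chr15:74790406-74937680, spans 147 kb with 19 enhancers and rose from 0.434 and 0.223 RPM to 4.31 and 3.39 RPM (11.7-fold, interval 5.91 to 26.2), with an adjusted p of 1.20e-21 by edgeR's quasi-likelihood test. Unstimulated cells showed only 6 and 3 tags over this whole region, and IFN-γ 57 and 44. Of its 19 enhancers, 16 had more RPM after IFN-γ, 15 had no tag before, and 13 of these 15 gained tags. An enhancer with no tag before could not go lower. Apart from chr15:74870658-74871129, 3 of its enhancers were called: chr15:74871437-74872172 (0 and 0 to 2 and 5 tags), chr15:74921560-74922005 (0 and 0 to 6 and 1) and chr15:74922495-74923036 (0 and 0 to 4 and 2).

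Rising locus 3, chr19:29341514-29476888, spans 135 kb with 22 enhancers, the most among the 10, and rose from 0.289 and 0.744 RPM to 4.01 and 3.39 RPM (7.20-fold, interval 4.09 to 13.7). More RPM after IFN-γ was found at 17 of the 22. Its main enhancer, chr19:29343572-29344121, went from 1 and 1 tags to 15 and 14 (adjusted p = 2.60e-06), and 2 more were called at a distance from it, chr19:29380280-29380785 (0 and 0 to 6 and 3 tags) and chr19:29476554-29476888 (0 and 1 to 7 and 4). Rising locus 5, chr4:132459018-132543954, had 4 called rises among 12 enhancers, as many as rising locus 2, and rose from 0.289 and 0.372 RPM to 3.02 and 2.00 RPM (7.62-fold, interval 3.78 to 17.4). More RPM was found at 11 of the 12, and the remaining enhancer had no tag in the 4 libraries. Its called enhancers were weak singly: the strongest, chr4:132521270-132521724, went from 1 and 0 tags to 5 and 8.

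**Figure D3:**
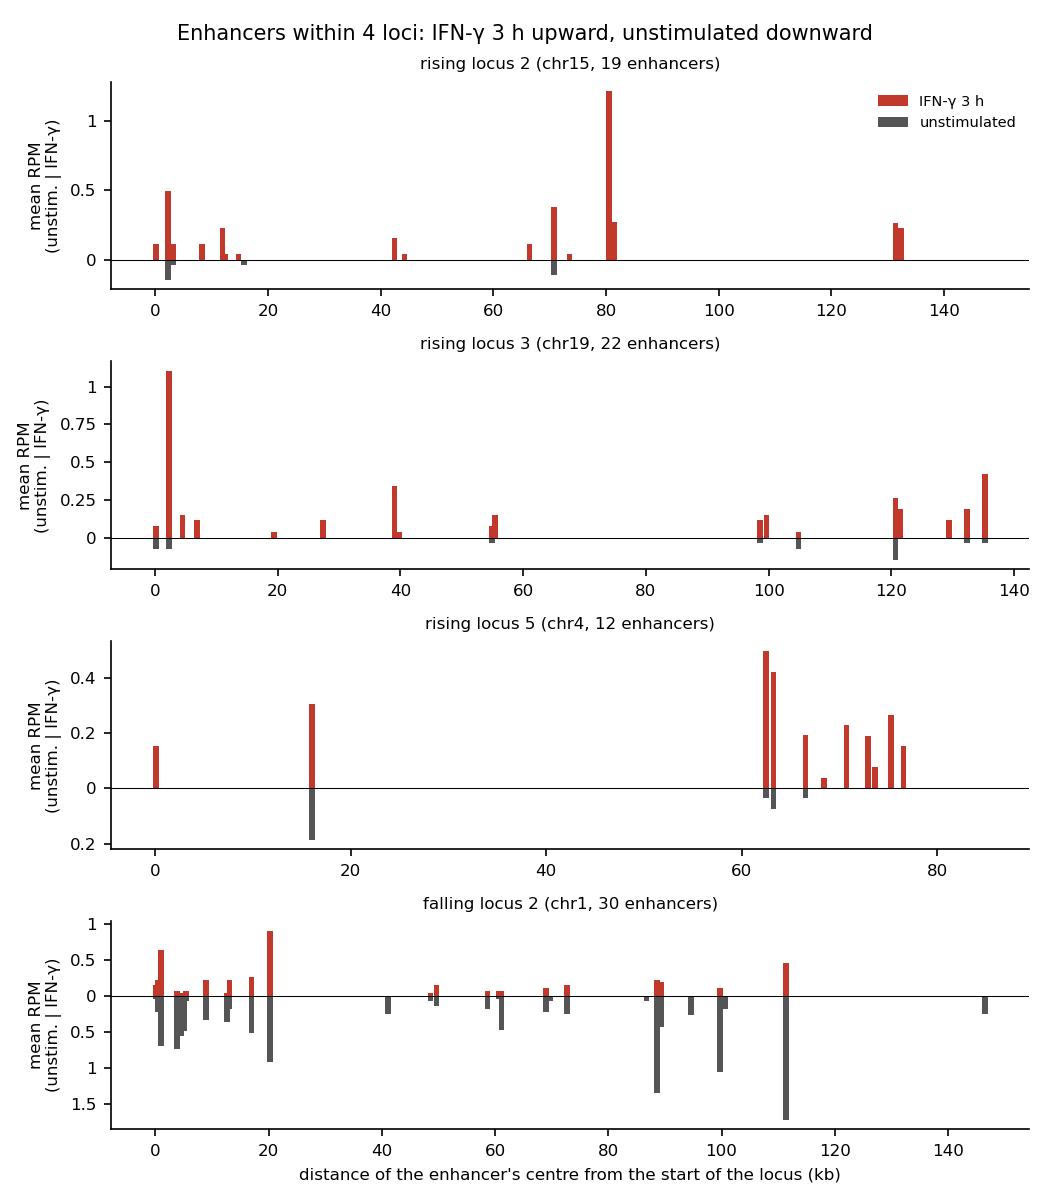
Mean RPM of each enhancer along 4 loci, with IFN-γ 3 h drawn upward and unstimulated cells downward (n = 2 libraries each) against the distance of the enhancer's centre from the start of the locus in kb. In rising loci 2, 3 and 5 the upward bar is the longer at 16 of 19, 17 of 22 and 11 of 12 enhancers. In falling locus 2 the downward bar is the longer at 23 of 30. The loci were chosen for their summed change in these libraries, and the matching shares over all enhancers were not counted.

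The other 3 rising loci differed in how many of their enhancers took part. Rising locus 6, chr4:128622211-128627817, is compact, with 5 enhancers in 5.61 kb, all of which had more RPM after IFN-γ, and rose from 0.362 and 0.223 RPM to 2.65 and 2.15 RPM (8.19-fold, interval 3.91 to 19.8). Its first enhancer, chr4:128622211-128622725, went from 0 and 1 tags to 15 and 10. Rising locus 9, chr19:11306875-11581269, is the longest at 274 kb, with 19 enhancers, and rose 4.35-fold (interval 2.49 to 8.05), from 11 and 5 tags to 41 and 26. Here 11 enhancers had more RPM and 3 less, and the called ones were chr19:11471944-11472230 (0 and 0 to 6 and 4 tags) and chr19:11517556-11517878. Rising locus 10, chrY:90755853-90852369, was the most active beforehand, with 1.66 and 1.34 RPM against 3.63 and 3.23 RPM after IFN-γ (2.28-fold, interval 1.56 to 3.39). Rise 6 gave most of its gain, while its strongest enhancer before IFN-γ, chrY:90775685-90775937, held 11 and 8 tags before and 7 and 9 after.

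Falling loci had less signal at most of their enhancers. The loci were chosen for their summed loss in these libraries, so counts of enhancers within them describe them. Enhancers as a whole also held less after IFN-γ, with group means of 1153 against 1552 RPM. The share with less RPM over all enhancers was not counted. Falling locus 1, chr8:84919232-84964446, spans 45.2 kb and was the most active of the 15 named loci, with 14.0 and 12.2 RPM in unstimulated cells and 5.44 and 2.46 RPM after IFN-γ (3.30-fold lower, interval 2.65 to 4.15). All 9 of its enhancers had less RPM, and 3 were called, fall 2, chr8:84924934-84925546 (13 and 17 to 4 and 1 tags) and chr8:84929010-84929499 (23 and 13 to 6 and 1). Falling locus 3, chr11:114770587-114895102, fell from 7.38 and 9.53 RPM to 1.97 and 1.77 RPM, the steepest fall of the 5 (4.52-fold, interval 3.31 to 6.28). All 12 of its enhancers had less RPM, and fall 5, chr11:114775634-114775879 (11 and 14 to 1 and 2 tags) and chr11:114788923-114789329 (25 and 22 to 6 and 5) were called.

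Falling locus 2, chr1:190913356-191059965, holds 30 enhancers in 147 kb and fell from 13.2 and 11.2 RPM to 5.67 and 3.54 RPM (2.64-fold lower, interval 2.14 to 3.28). It was not uniform: 23 enhancers had less RPM and 6 more. The largest losses lay toward its far end, at chr1:191001595-191002354 (22 and 15 to 3 and 3 tags), chr1:191012987-191013192 (16 and 13 to 1 and 2) and chr1:191024529-191024970 (25 and 22 to 9 and 3), and chr1:190917854-190918170 was also called (7 and 8 to 0 and 1). Near its start, chr1:190933413-190933718 held 14 and 11 tags before and 16 and 8 after, and was not called (adjusted p = 0.597). Falling locus 4, chr5:34684166-34702272, fell from 8.68 and 8.04 RPM to 2.80 and 1.85 RPM (3.60-fold lower, interval 2.70 to 4.85), and fall 1 held 90 and 91 of its 120 and 108 tags before IFN-γ. Falling locus 5, chr17:26716256-26825846, had the smallest change, from 10.6 and 9.23 RPM to 5.59 and 2.46 RPM (2.45-fold lower, interval 1.95 to 3.10). Its adjusted p of 0.000349 rose to 0.123 without IFN-γ replicate 2, and it was the only one of the 15 named loci to lose its call under the alternatives run on it, which leave out the other gap lengths.

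Whether the response was the same when CpG was present could be read in other libraries. Those with both stimuli and with CpG alone at 3 h share none with the first comparison. The filter and the estimate of spread, however, used all 20 libraries. Some weak rises entered the test through groups other than those first compared. An example is chr15:74922495-74923036, with 4 and 2 tags after IFN-γ and 11 in all with both stimuli. How many did so was not counted, and the shares below include them. Adding IFN-γ to CpG raised 318 of the 2792 enhancers (11.4%) and lowered 152 (5.44%), or 376 and 85 with whole-library totals. Of the 212 rises, 141 (66.5%) were also higher here, which is 44.3% of the 318, and none was lower. A log2 change above 0 was found for 97.6% of the rises and 52.7% of all tested enhancers, with medians of 3.18 and 0.11. Of the 81 falls, 28 (34.6%) were also lower, which is 18.4% of the 152, and none was higher. A log2 change below 0 was found for 92.6% of the falls and 46.4% of all tested enhancers, and the median over the falls was -1.31. With DESeq2 the counts were 66 rises and 11 falls. With whole-library totals, 18 falls remained. Leaving out CpG replicate 1 or 2 gave 68 or 75 rises and 17 or 15 falls, and leaving out replicate 1 or 2 of the combination gave 110 or 85 rises and 14 or 11 falls. The difference between the readings was itself tested, and passed at 1 of the 2792 enhancers, with 189 at an unadjusted p under 0.05.

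**Figure D4:**
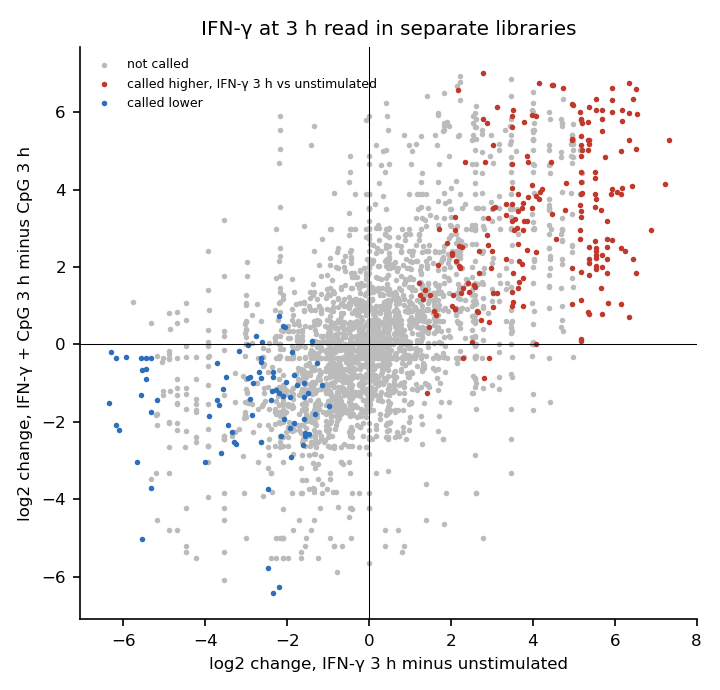
Log2 change of each of the 2792 tested enhancers on IFN-γ alone at 3 h (x axis, against unstimulated cells) and on IFN-γ added to CpG at 3 h (y axis, against CpG alone), from libraries that the axes do not share. The 212 rises (red) lie mostly above 0 on the y axis (97.6%) and the 81 falls (blue) mostly below (92.6%).

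The strongest rises were again among those seen in these libraries. Rise 1 held 2 and 3 tags with CpG and 83 and 111 with both stimuli, a log2 change of 4.85 ± 0.46 (SE; adjusted p = 4.59e-23, edgeR's quasi-likelihood test). Of the 10 rises with the largest gain, 9 were higher, and rise 9 was not called, with 4 and 3 tags against 11 and 17 (adjusted p = 0.0567). Of the 8 rises from no tags, 7 were higher, the exception being chr8:83127709-83127907, with 2 and 0 tags against 3 and 7 (adjusted p = 0.269). Fall 1 held 38 and 30 tags with CpG and 9 and 12 with both (log2 change -2.04 ± 0.38, adjusted p = 1.37e-05), and 6 of the 8 largest falls were lower. Fall 3 and fall 7 were not called: they held 10 and 8 tags and 9 and 12 tags with CpG alone. None of the 5 falls to no tags was called here.

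At the level of loci, IFN-γ on top of CpG raised 342 of 1896 (18.0%) and lowered 191 (10.1%). Of the 245 loci that rose with IFN-γ alone, 179 (73.1%) were higher here and 1 was lower, and of the 152 that fell, 65 (42.8%) were lower and none was higher. All 10 named rising loci were higher, and 3 of the 5 named falling loci were lower. Falling locus 1 was called lower (adjusted p = 0.0209) although its groups overlapped, with 5.68 and 7.33 RPM with CpG and 4.77 and 6.13 RPM with both. Falling locus 3 stood at 5.38 and 4.51 RPM with CpG and at 1.66 and 1.92 RPM with both, and falling locus 4 at 4.41 and 3.82 RPM against 1.88 and 1.40 RPM. Falling locus 2 held 6.50 and 8.02 RPM with CpG and 6.57 and 8.28 RPM with both, with overlapping groups and no call (adjusted p = 0.264).

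The difference between the 2 stimuli at 3 h was tested directly, IFN-γ against CpG, with the same IFN-γ libraries as in the first comparison. Transcription was higher with IFN-γ at 173 enhancers (6.20%) and lower at 114 (4.08%). This split depended on the scaling: it was 131 higher and 121 lower with whole-library totals, and 147 and 172, 205 and 199, or 109 and 144 with limma on RPM plus 0.5, 0.1 or 2. These 287 calls became 71 with DESeq2, 97 or 101 without CpG replicate 1 or 2, and 123 or 120 without IFN-γ replicate 1 or 2. Of the 212 rises, 122 were higher with IFN-γ than with CpG and none lower, and of the 81 falls, 25 were lower and none higher. The rises and falls were chosen with these same IFN-γ libraries, so that these counts describe them and support nothing on direction. The 3 largest differences in favour of IFN-γ were rises 1, 2 and 3. Rise 3 held 42 and 13 tags with IFN-γ and 1 and 0 with CpG. Among the 10 largest gains only rise 7 was not called, with 28 and 25 tags against 19 and 18 (adjusted p = 0.210). In favour of CpG, the largest difference in RPM was at chrX:169088704-169089473, with 129 and 119 tags with CpG against 89 and 40 with IFN-γ. Unstimulated cells held 137 and 95 tags there. Next was chr17:56268411-56268705, which held 31 and 33 tags with CpG and 2 and 2 with IFN-γ, and 4 and 3 in unstimulated cells. Then came chr7:75319181-75319526, with 28 and 34 tags against 4 and 7, and 18 and 9 in unstimulated cells. None of these 3 was called for IFN-γ against unstimulated cells, although chrX:169088704-169089473 passed with whole-library totals (adjusted p = 0.0374) and with 2 of the 3 limma fits.

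The levels at 3 h were followed at 9 and 15 h of IFN-γ. Summed over the 212 rises, unstimulated libraries held 23.9 and 20.8 RPM, the 3 h libraries 164 and 121 RPM, the 9 h libraries 114 and 156 RPM and the 15 h libraries 117 and 117 RPM. CpG for 3 h gave 26.9 and 33.3 RPM, and both stimuli for 3 h 176 and 233 RPM. The 81 falls held 110 and 99.4 RPM in unstimulated cells, 21.5 and 13.8 RPM at 3 h, 30.2 and 40.0 RPM at 9 h and 33.1 and 38.2 RPM at 15 h. With CpG alone for 3 h these 81 held 55.3 and 57.7 RPM, and with both stimuli for 3 h 26.0 and 31.6 RPM. The enhancers were chosen for their change between these unstimulated libraries and those at 3 h, so the sums describe them and were not tested. Every later IFN-γ library lay above both unstimulated ones for the rises and below both for the falls. The same held for both libraries with CpG alone for 3 h.

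Single loci followed different courses. Between 3 and 15 h of IFN-γ, 27 of the 1896 loci were higher at 15 h (1.42%) and 26 lower (1.37%), and 4 of the 10 named rising loci were lower and none higher. The named loci were chosen for their change in the same 3 h libraries, which favours a return toward the unstimulated level at 15 h, so the values and p-values that follow describe them. Rising locus 6 was transient: it stood at 2.65 and 2.15 RPM at 3 h, at 0.866 and 0.799 RPM at 9 h and at 0.529 and 0.374 RPM at 15 h, where it approached the unstimulated 0.362 and 0.223 RPM. Its log2 change from 3 to 15 h was -2.51 ± 0.45 (SE; adjusted p = 3.89e-05, edgeR's quasi-likelihood test). Rising locus 4 stood at 3.85 and 1.85 RPM at 3 h and at 1.29 and 0.823 RPM at 15 h (adjusted p = 0.00112), and rising loci 1 and 10 were lower at 15 h as well (adjusted p = 0.0368 for each). Rising locus 2 held 7.15 and 9.08 RPM at 9 h and 6.35 and 5.39 RPM at 15 h, above the 4.31 and 3.39 RPM at 3 h in every library, but the change from 3 to 15 h did not pass (adjusted p = 0.223). The courses of loci 6 and 2 were not tested against each other. Among the falling loci, locus 1 was partly back, with 6.58 and 7.11 RPM at 15 h against 5.44 and 2.46 RPM at 3 h (adjusted p = 0.0477). Locus 5 was called lower at 15 h, with 2.95 and 1.95 RPM against 5.59 and 2.46 RPM (adjusted p = 0.0406), but its groups overlapped, and only IFN-γ 3 h replicate 1 lay above both 15 h libraries.

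**Figure D5:**
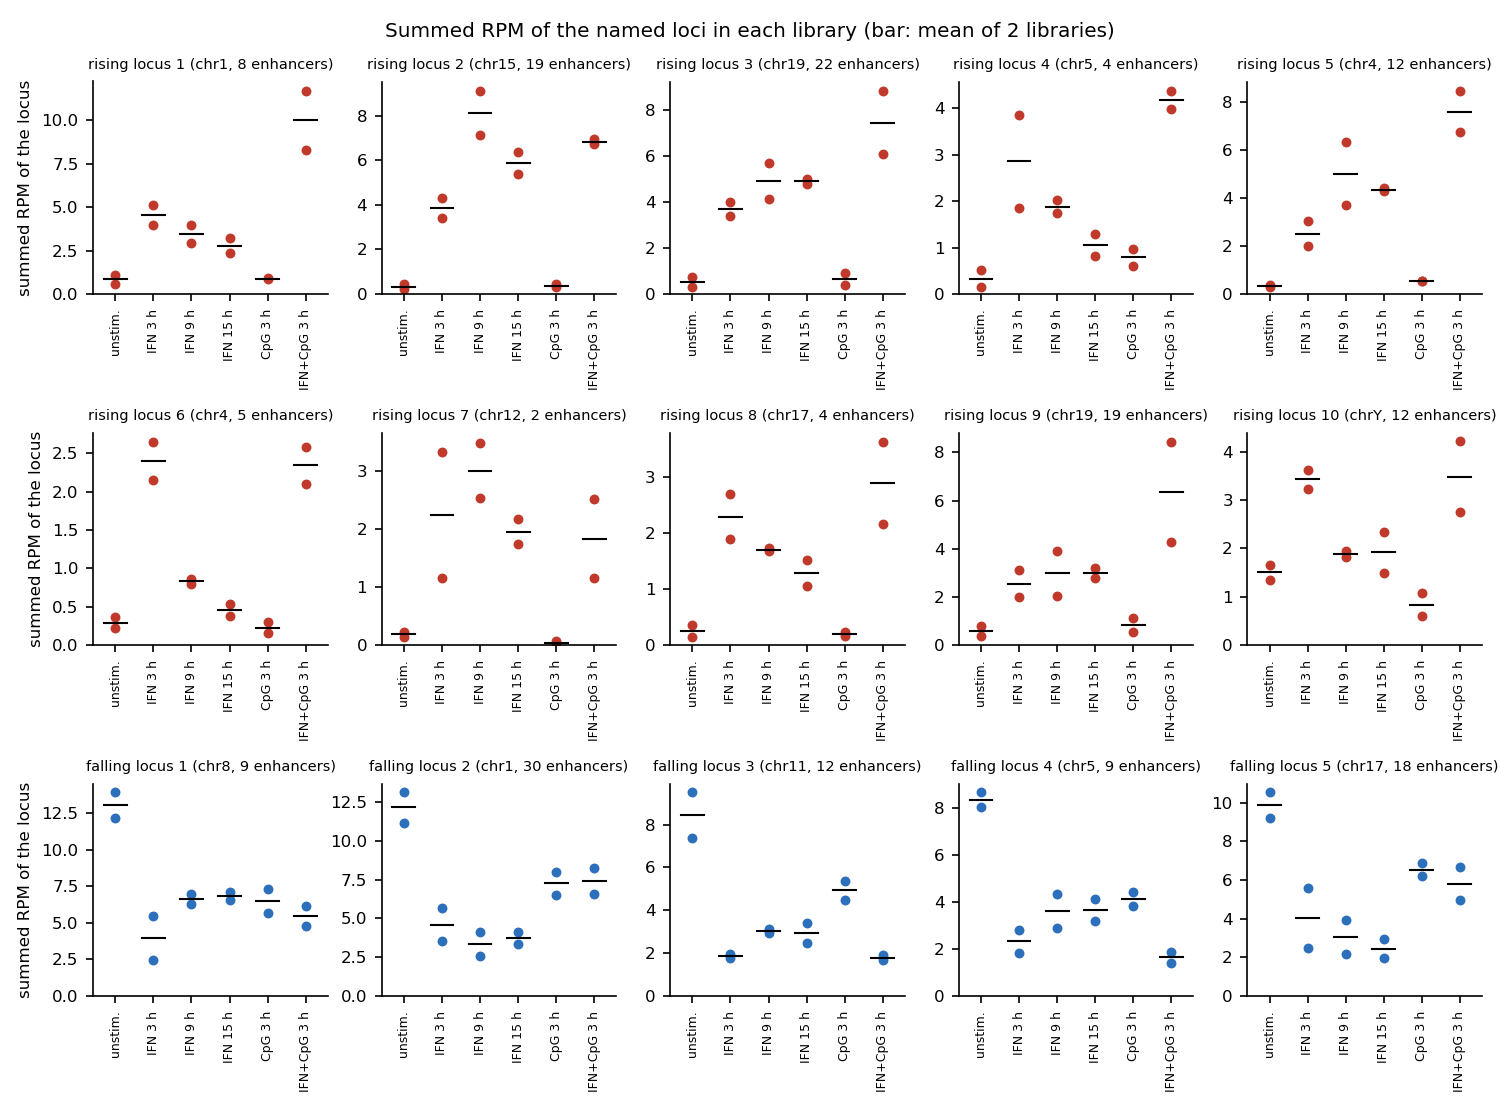
Summed RPM of the 10 rising (red) and 5 falling (blue) named loci in each library of 6 groups; points are libraries and bars the mean of 2. Rising locus 6 is high at 3 h of IFN-γ, at 2.65 and 2.15 RPM, and low again at 15 h, at 0.529 and 0.374 RPM, while rising locus 2 stays up, at 6.35 and 5.39 RPM at 15 h.

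The response was spread over the genome. Each of the 19 autosomes held at least 1 rise. The share of tested enhancers that rose was highest among the autosomes on chromosome 16, with 16 of 117 (13.7%), followed by chromosome 19 with 12 of 108 (11.1%) and chromosome 4 with 18 of 174 (10.3%). It was lowest on chromosome 18, with 1 of 66 (1.52%), against 7.59% over all. Falls were most frequent on chromosome 8, with 10 of 140 (7.14%), and on chromosome 1, with 13 of 203 (6.40%), against 2.90% over all. These shares were not tested, and neighbouring enhancers share loci.

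Calls grew more frequent with the level of an enhancer. In 4 classes of 698 enhancers by mean RPM over the 20 libraries, 3.58%, 5.44%, 8.60% and 12.8% rose from the lowest to the highest class, and 1.58%, 1.43%, 2.01% and 6.59% fell. These means include the libraries that made the calls and the other IFN-γ libraries, so a called change moves the level of its own enhancer. The shares therefore describe the calls. Weak enhancers also carry fewer tags, and the part of either in these shares was not tested. By width, 6.59%, 8.45%, 7.45% and 7.88% rose from the narrowest to the widest class, and 2.15%, 2.44%, 3.30% and 3.72% fell. Median widths were 377.5 bases for the rises, 410 for the falls and 372 for all tested enhancers.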

How the data were processed

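Raw tag counts per enhancer, deposited by the authors for 20 libraries, were tested as they stood. A second table deposited by the authors holds RPM values, which they had scaled to all tags of a library, as each count divided by its value gave 1 total per library. The submitters' processing notes name BWA 0.7.10, HISAT2 2.1.0, Trimmomatic 0.38 and FastQC 0.11.5, with mm39 as the build; the enhancer caller is not given in the sources used here, nor is whether starts count from 0 or 1. Regions that overlap each other, promoters or repeats were not checked.

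Enhancers were kept by filterByExpr (minimum count 5, minimum total 15) and tested with edgeR 4.0.16 in R 4.3.3 (robust quasi-likelihood F-test, two-sided, TMM factors, 1 coefficient per group over all 20 libraries, 10 residual degrees of freedom), with Benjamini-Hochberg adjustment over the 2792 tested. An SE is the log2 change divided by the square root of F. Loci were fitted likewise on summed counts, with the factors of the enhancer fit. The common biological coefficient of variation was 17.8%. Ratios of RPM have exact 95% intervals, and a group with no tag is set to a floor of 3 tags over the group; both cover counting error only. The code was tested on simulated data.

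Named enhancers had to be called, with both IFN-γ libraries beyond both unstimulated ones and a mean of at least 5 tags in the higher group: the 10 rises and 8 falls with the largest difference in mean RPM, the 8 and 5 with the largest log2 change, the 5 and 5 with the smallest adjusted p, and 3 each way against CpG by difference in RPM. Named loci were the 10 rises and 5 falls with the largest difference among those of 2 or more enhancers. Lists and the comparisons were chosen with earlier results of these data known. Gene names, gene lists, cell markers and motifs had been planned and were not run, for want of an annotation of mm39 at hand. Alternatives were RLE factors, whole-library totals, DESeq2 1.42.0, limma 3.58.1 on log2(RPM + 0.5, 0.1 or 2), no filter, a stricter filter (10 and 30), the replicate block, the compared groups alone, each library left out, and gaps of 10 and 200 kb. Counts of shared calls and the test of the difference between the 2 readings were added after seeing the data.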

Additional observations from a re-analysis of the deposited data

Results flagged for a closer look

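One enhancer responded differently to IFN-γ with and without CpG, by a test of that difference over all 2792 tested enhancers. At chr17:27766195-27766562, the unstimulated libraries held 19 and 14 tags and the IFN-γ 3 h libraries 43 and 20, while CpG alone gave 13 and 15 tags and both stimuli 3 and 12. IFN-γ alone thus went with more tags (log2 change 1.41, adjusted p = 0.00391, edgeR's quasi-likelihood test), and IFN-γ on top of CpG with fewer (-1.25, adjusted p = 0.0640). The difference was -2.67 ± 0.62 (SE) on the log2 scale, with an adjusted p of 0.0460. Both groups with IFN-γ varied widely between their libraries, 2.39 ± 1.21 and 0.552 ± 0.474 RPM (SD, n = 2). Its locus of 5 enhancers, chr17:27766195-27811050, was the 1 of 245 rising loci that was lower with IFN-γ on top of CpG, with log2 changes of 1.20 (adjusted p = 0.00117) and -1.05 (adjusted p = 0.0304).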

How the results depend on the processing

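The count of 293 calls (212 higher, 81 lower) moved most with the test, the filter and the number of libraries; causes were not tested beyond the fewer samples of a left-out library. DESeq2 gave 88 (74 and 14, with no adjusted p for 1191 enhancers), no filter 140 (105 and 35), and the stricter filter 138 rises. Whole-library totals gave 131 rises and 181 falls, with a median log2 change of -0.30 over all tested enhancers, and limma on RPM, which shares that scaling, 141 and 279 (plus 0.5), 244 falls (plus 0.1) or 109 and 273 (plus 2). Leaving out a library gave 99 to 162 calls, 76 to 140 rises and 17 to 38 falls. For IFN-γ against CpG, the 287 calls (173 and 114) were 131 and 121 with whole-library totals and 147 and 172 (plus 0.5), 205 and 199 (plus 0.1) or 109 and 144 (plus 2) with limma, and became 71 (DESeq2), 132 (no filter) and 97 to 123 (a library left out). For IFN-γ on top of CpG, the 470 became 114 (DESeq2), 270 (no filter), 265 (stricter filter) and 161 to 275 (a library left out). The 397 loci became 185 with DESeq2 and 240 to 270 with a library left out, and were 418 and 319 at gaps of 10 and 200 kb. Rises shared by both readings were 66 with DESeq2 and 68 to 110 with a library left out; shared falls were 18 (whole-library totals), 11 (DESeq2), 17 (limma plus 2) and 11 to 17 (a library left out). The difference in enhancer tags, -399 RPM, ranged from -561 to -237 RPM. The deviations of same-numbered libraries had a correlation of -0.00539 for the compared groups, and of -0.0513 to 0.0381 over all pairs of groups. With so few tags per enhancer, counting noise could hide a shared deviation, so whether the numbers pair the libraries cannot be told. With the replicate block the calls were 280 (204 and 76), 278, 455 and 385 loci. No named result changed direction under the alternatives that gave it a value; some named enhancers had none with DESeq2 or the stricter filter, and named loci were not refitted at the other gaps.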
